A study of Homo sapiens with 12 samples.

Results

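The response of DOHH2 cells to the compound ST5589 was described from 6 of the 12 arrays of the series, chosen by cell line from the sample titles: 3 arrays of cells given ST5589 at 300 nM and 3 arrays of cells given DMSO, the vehicle. DOHH2 is a human line of germinal centre B-cell lymphoma, grown in vitro. ST5589 is, by the labels, derived from ST1926, also called adarotene, which belongs to the atypical retinoids. The remaining 6 arrays hold TMD8, a lymphoma line of activated B-cell type, under the same 2 treatments, and serve here for the estimate of the spread and as a comparison. Each array is a single-colour Illumina beadchip, and all values below are normalized log2 intensities of the brightest probe of a gene. The sources used here do not give the exposure time or say whether replicates came from separate cultures. The p-values therefore cover the spread between these arrays alone, and that spread may be technical.

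Most transcripts of mitosis are made in G2 and M phase, with activation by B-MYB and FOXM1, and are repressed by the DREAM complex in cells that rest or have stopped in G1. The tumour suppressor p53 adds to that repression through its target CDKN1A (p21). The integrated stress response is a separate pathway, in which kinases that sense amino acid shortage, unfolded protein, heme or viral RNA phosphorylate eIF2alpha, and the translated factor ATF4 then raises genes of amino acid supply together with ATF3 and DDIT3.

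The effect of ST5589 against DMSO in DOHH2 was small. Of 11419 genes tested, 4 passed a Benjamini-Hochberg adjusted p of 0.05 in limma (0.035%), 2 of them higher under ST5589 (0.0175%) and 2 lower (0.0175%). ATF3, a stress-induced transcription factor of the ATF/CREB family, and INHBE, which encodes the inhibin beta E chain and is a known target of the stress response, rose. KIF20A, a kinesin of the central spindle that is needed for cytokinesis, and DLGAP5 (HURP), which stabilises the microtubules that hold chromosomes, fell. At an unadjusted p under 0.05 the test gave 545 genes (4.77%), 295 higher (2.58%) and 250 lower (2.19%), and in 950 genes (8.32%) the treated arrays did not overlap the DMSO arrays, 504 of them higher (4.41%) and 446 lower (3.91%). Neither total share exceeds what arrays in random order would give, so these are not counts of responding genes. With each of the 6 DOHH2 arrays left out in turn, limma called 1 to 3 of these genes. ATF3 was called in all 6 of those fits (adjusted p = 0.000447 to 0.00746), INHBE only without ST5589 array 1 (0.0492, up to 0.216 without the others), and KIF20A and DLGAP5 only without ST5589 array 2 (0.0212 and 0.0305, up to 0.348 without the others), while all 4 kept their direction. With the 6 DOHH2 arrays fitted alone 0 genes passed and 237 had an unadjusted p under 0.05, ATF3 being at a limma adjusted p of 0.0522. The counts by unadjusted p and by overlap are used below only to describe gene groups.

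The windows around the gene starts of 3 of these 4 genes are shown because they carry, or lack, the short elements by which each group is known to be controlled. RefSeq windows (GRCh38.p14) run from 250 bases before to 50 bases after the gene start, on the strand of the gene, with matches in capitals and the gene start counted as position 1. Only 1 window was read per gene, so any other start of a gene was not searched. The stress element is the core of the C/EBP-ATF response element, TGATGNAA. The mitotic element is the cell cycle genes homology region (CHR), TTTGAA or TTCGAA. Both were searched on both strands.
ATF3 (chr1:212565157-212565456, plus strand): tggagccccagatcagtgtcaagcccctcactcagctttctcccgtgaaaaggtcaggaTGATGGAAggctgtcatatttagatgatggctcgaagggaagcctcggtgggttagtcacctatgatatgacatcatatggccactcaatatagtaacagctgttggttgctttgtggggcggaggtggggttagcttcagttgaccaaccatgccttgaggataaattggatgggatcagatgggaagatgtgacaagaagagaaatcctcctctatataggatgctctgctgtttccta
DLGAP5 (chr14:55191536-55191835, minus strand): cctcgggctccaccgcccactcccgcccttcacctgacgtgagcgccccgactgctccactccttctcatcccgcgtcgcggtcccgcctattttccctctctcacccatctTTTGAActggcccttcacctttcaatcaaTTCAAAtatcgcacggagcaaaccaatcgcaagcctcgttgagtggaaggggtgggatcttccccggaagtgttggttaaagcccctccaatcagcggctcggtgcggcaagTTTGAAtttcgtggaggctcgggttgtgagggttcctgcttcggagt
KIF20A (chr5:138178862-138179161, plus strand): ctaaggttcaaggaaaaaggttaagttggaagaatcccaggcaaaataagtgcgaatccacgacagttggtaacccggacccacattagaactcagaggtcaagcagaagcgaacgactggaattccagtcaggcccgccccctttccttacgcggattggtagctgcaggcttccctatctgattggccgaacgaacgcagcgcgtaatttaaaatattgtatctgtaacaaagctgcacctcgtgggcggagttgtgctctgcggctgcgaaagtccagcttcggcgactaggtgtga
The ATF3 window held 1 match of the stress element, at position -191, and none of TGACG, the half-site of the cAMP response element. These matches describe this window alone, and whether ATF3 is transcribed from this start in DOHH2 was not tested. The DLGAP5 window held 3 matches of the CHR, at positions -138, -109 (on the other strand) and 4. The letters of the CHR are not in the KIF20A window. INHBE was the other gene that passed.

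Genes of the stress response led the higher group. ATF3 lay at 6.93, 6.97 and 7.11 in the DMSO arrays and at 8.33, 8.17 and 8.00 in the ST5589 arrays. All treated arrays were well above all DMSO arrays, and the log2 fold change was 1.16 ± 0.11 (limma SE, 3 arrays against 3, adjusted p = 0.000496). INHBE lay at 6.40, 6.32 and 6.41 under DMSO and at 7.02, 7.10 and 7.31 under ST5589. The groups did not overlap, and the difference was 0.77 ± 0.11 (limma adjusted p = 0.0343). INHBE is a dim probe, close to the lowest signal counted as above background (6.20 to 6.27 over the DOHH2 arrays), but it was above background in all 6 arrays.

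DDIT4 (REDD1), a stress-induced inhibitor of mTOR signalling, was at 9.22, 9.55 and 9.41 under DMSO and at 10.17, 9.92 and 10.10 under ST5589. Its groups were apart, by 0.67 ± 0.11 on the log2 scale, and it did not pass (limma adjusted p = 0.0661). SESN2, an inhibitor of mTOR signalling that both ATF4 and p53 are known to raise, was at 6.18, 6.65 and 6.39 against 7.20, 6.97 and 7.09, a difference of 0.68 ± 0.12 (limma adjusted p = 0.131). TRIB3, a pseudokinase that ATF4 and DDIT3 are known to raise, differed by 0.73 ± 0.19 and CEBPB, a transcription factor that partners ATF4, by 0.57 ± 0.15, both without overlap and neither past the threshold (limma adjusted p = 0.61 for each). WARS1, the cytosolic tryptophan tRNA ligase, differed by 0.54 ± 0.14 and PSAT1, an enzyme of serine synthesis, by 0.34 ± 0.08 (limma adjusted p = 0.597 and 0.474). CHAC1, which breaks down glutathione and is a target of ATF4, was not well above background in any DMSO array and was above it in all 3 treated arrays, at least 1.07-fold higher by the bound that the background sets. Within DOHH2 only the treated group of CHAC1 met the rule by which a probe was kept, so its detection there is no separate result. TRIB3, CEBPB and CHAC1, together with DDIT3, ATF4 and HSPA5 below, were picked after their values were seen.

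Of 45 genes in the list of integrated stress response and amino acid supply genes, 40 were tested. The 2 risen genes above are both members. At an unadjusted p under 0.05, 15 members were higher and 0 lower, against 2.58% and 2.19% of all genes tested. In the same number, 15, each treated array was above each DMSO array, against 4.41% of all genes tested. CHAC1 and SESN2 are in both counts, and within DOHH2 only their treated groups met the rule by which a probe was kept. The median log2 fold change of the members was 0.22, against 0.01 over all genes tested. It was positive in 35 of 40 members, against 6092 of all 11419 genes tested. Measured from the DMSO mean of each gene, the median member was at 0.20, 0.24 and 0.27 in the 3 ST5589 arrays, so no single treated array carries it. ATF4 itself, which is controlled mainly in translation, was level in its brightest probe, at 12.60 ± 0.12 (SD, n = 3) and 12.62 ± 0.06 (SD, n = 3). Its dimmer probes gave -0.24 ± 0.14 and -0.08 ± 0.15 (limma SE). The sign of ATF4 changed with the scaling of the arrays (-0.19 where the arrays were brought to a common median). DDIT3 (CHOP), the factor that links lasting stress to cell death, was at 7.73, 7.06 and 7.09 under DMSO and 7.75, 7.64 and 7.83 under ST5589. DMSO array 1 lay within the range of the treated arrays, so the groups overlapped, and the difference of 0.45 ± 0.16 did not pass (limma adjusted p = 0.927).

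The unfolded protein response of the endoplasmic reticulum shares ATF4 with the integrated stress response, and its own targets are the chaperones. Of 21 tested chaperone genes 0 were called by limma, and the median was -0.03. At an unadjusted p under 0.05 there were 0, against 2.58% higher and 2.19% lower of all genes. The groups stood apart in 0, against 4.41% upward and 3.91% downward of all genes. HSPA5 (BiP), the main chaperone of that compartment, was at 8.30 ± 0.02 and 8.44 ± 0.18 (SD, n = 3), a difference of 0.14 ± 0.10. Among 21 genes of heat shock and oxidative stress the count at an unadjusted p under 0.05 was also 0, and the median was -0.04. The named members with the lowest p were HSPA1B, an inducible HSP70 (-0.19 ± 0.12), HSPA4L, a related chaperone (-0.15 ± 0.10), and NQO1, the quinone reductase raised by NRF2 (-0.14 ± 0.10).

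In promoters, 8 of the 34 tested stress genes with a RefSeq window (23.5%) held TGATGNAA, against 1.83% of the 9127 tested genes with a window and 3.62% of all 35116 windows in the table. The members with the element had a median log2 fold change of 0.24 and the 26 without it one of 0.22. TGACG was in 41.2% of the stress windows, 34.8% of those of tested genes and 24.6% of all. The share with TGATGNAA describes how this list of known ATF4 targets is made up, and the medians did not separate with it.

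**Figure D1:**
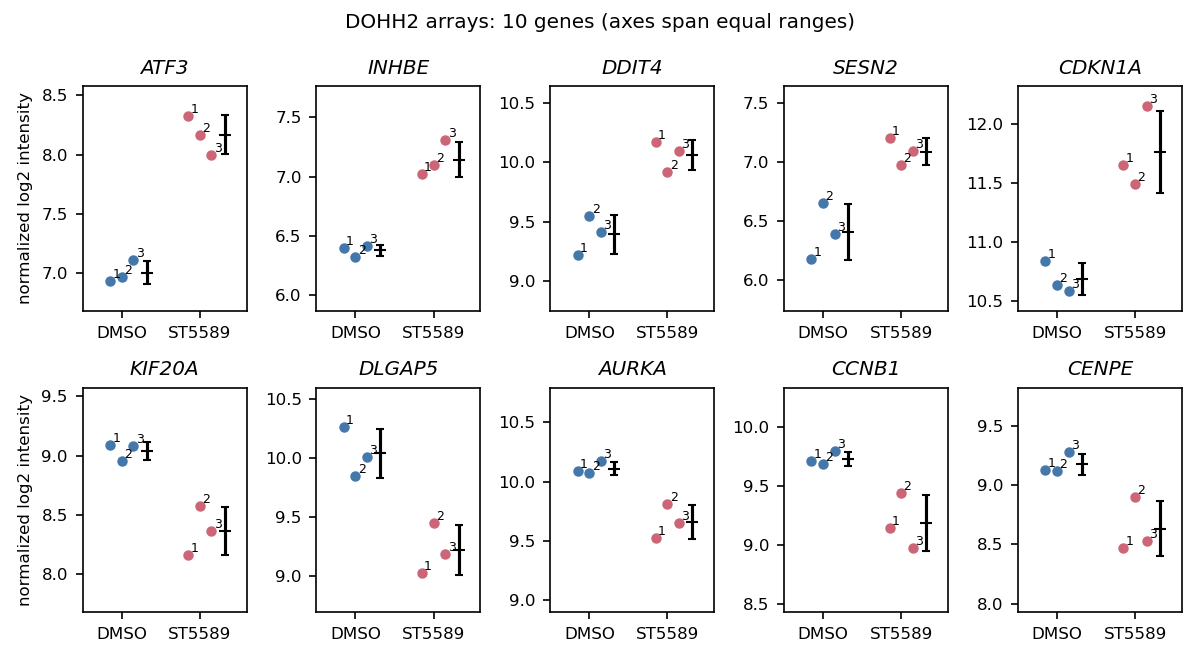
Normalized log2 intensity of 10 genes in each DOHH2 array, as points numbered by array, with the mean and SD of each group as a bar beside them; every panel spans the same height. ATF3, INHBE, DDIT4, SESN2 and CDKN1A were higher and KIF20A, DLGAP5, AURKA, CCNB1 and CENPE lower in all 3 ST5589 arrays than in any DMSO array, and ST5589 array 2 is the nearest to the DMSO arrays for the lower 5.

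Both fallen genes act in mitosis. KIF20A lay at 9.09, 8.95 and 9.08 in the DMSO arrays and at 8.16, 8.57 and 8.36 in the ST5589 arrays. The groups did not overlap, and the gene fell by 0.68 on the log2 scale (± 0.10, limma adjusted p = 0.0495). DLGAP5 lay at 10.26, 9.85 and 10.01 against 9.03, 9.45 and 9.19. It fell by 0.82 (± 0.13, limma adjusted p = 0.0495), and its other probe gave -0.70. In both genes ST5589 array 2 was the treated array closest to DMSO. In a bulk measurement, fewer cells in mitosis and less of a transcript in each cell cannot be told apart.

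AURKA, the mitotic kinase Aurora A, was at 10.09, 10.07 and 10.17 under DMSO and at 9.52, 9.81 and 9.65 under ST5589. The 3 treated arrays were all below the DMSO arrays, by a mean of -0.45 ± 0.09, which did not pass (limma adjusted p = 0.224), and the other probe gave -0.48. BORA, the partner through which Aurora A activates PLK1, was at 9.80, 9.57 and 9.45 against 9.12, 9.26 and 9.18, a difference of -0.42 ± 0.10. PLK1, the Polo-like kinase itself, was at 7.13, 6.81 and 7.23 against 6.68, 6.88 and 6.91, and the groups overlapped (-0.24 ± 0.11). AURKB, the Aurora kinase of the chromosomal passenger complex, overlapped as well, at -0.05 ± 0.09. So within 1 pathway the groups of Aurora A and BORA did not overlap, while those of PLK1 and Aurora B did, and none of these genes passed. Under DMSO the PLK1 probe was dim, 0.82 on the log2 scale over the lowest signal counted as above background, against 3.88 for AURKA.

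CCNB1 (cyclin B1), the activating subunit of the mitotic kinase, was at 9.71, 9.68 and 9.79 against 9.14, 9.44 and 8.97. It was lower in all 3 treated arrays (-0.54 ± 0.14), but its treated arrays spread widely and it did not pass (limma adjusted p = 0.566). CDK1, its catalytic partner, was at -0.44 ± 0.12, and UBE2C, the ubiquitin-conjugating enzyme that works with the anaphase-promoting complex, at -0.41 ± 0.08. CDC25A, the phosphatase that activates CDKs at the G1/S boundary and sits in the same list, ran the other way at 0.37 ± 0.13. Its dimmer probe gave 0.08 ± 0.17. FOXM1, the transcription factor of the G2/M genes, overlapped between the groups (0.14 ± 0.17, and -0.09 with array weights). CDK1, CDC25A and FOXM1 were picked after their values were seen.

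Of the motors and cytokinesis genes, KIF23, a component of centralspindlin, was at -0.40 ± 0.08 and its dim second probe at -0.11. DEPDC1, a mitotic gene, was at -0.59 ± 0.12. CENPE, the kinesin that carries chromosomes to the spindle equator, was at 9.13, 9.12 and 9.28 against 8.47, 8.90 and 8.53, a difference of -0.54 ± 0.12 with a second probe at -0.51. All 3 were lower in every treated array than in any DMSO array, and none passed (limma adjusted p = 0.28, 0.28 and 0.385).

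Of the kinetochore and spindle genes, CENPA, the centromeric histone H3 variant, was at -0.47 ± 0.11 with a second probe at -0.45, and CENPF, a kinetochore protein of G2 and M phase, at -0.43 ± 0.10. CDCA3, a regulator of mitotic entry, was at 9.01, 8.97 and 9.06 against 8.58, 8.51 and 8.47, the tightest pair of groups among these genes, with a difference of -0.49 ± 0.11. GPSM2 (LGN), which orients the spindle, was at -0.41 ± 0.09 and is in none of the mitotic lists. HMMR, a spindle-binding protein, was at -0.48 ± 0.12 and TOP2A, the topoisomerase that separates sister chromatids, at -0.37 ± 0.12, and these 2 were picked after their values were seen. None of the 6 passed the adjusted threshold in limma.

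The mitotic genes were listed in 3 groups of 108 distinct genes, of which 105 were tested. Of these, 86 had a negative log2 fold change, against 5327 of all 11419 genes tested, and the median was -0.19. At an unadjusted p under 0.05, 36 were lower and 2 higher, against 2.19% and 2.58% of all genes tested. In 35 genes the highest treated array lay below the lowest DMSO array and in 3 the order was the opposite, against 3.91% and 4.41% of all genes tested. Over the 22 tested kinesins and cytokinesis genes the median was -0.25 with 12 lower at an unadjusted p under 0.05. Over the 35 kinases, cyclins and genes of the anaphase-promoting complex the median was -0.19 with 10 lower and 1 higher, and over the 48 spindle, centromere and kinetochore genes it was -0.16 with 14 lower and 1 higher. The median member of the kinesin list was at -0.30, -0.07 and -0.32 from its DMSO mean in the 3 treated arrays, so array 2 was close to the DMSO arrays there. For the kinases the 3 values were -0.18, -0.14 and -0.19, and for the spindle genes -0.19, -0.14 and -0.23, much closer to each other.

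The CHR was found in 63 of the 88 tested mitotic genes with a window (71.6%), against 12.1% of tested genes with a window and 16.4% of all windows. The median log2 fold change was -0.23 over the 63 genes with it and -0.14 over the 25 without it. KIF20A is among those without it and DLGAP5 among those with it, so the fallen genes lay on both sides of this split.

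**Figure D2:**
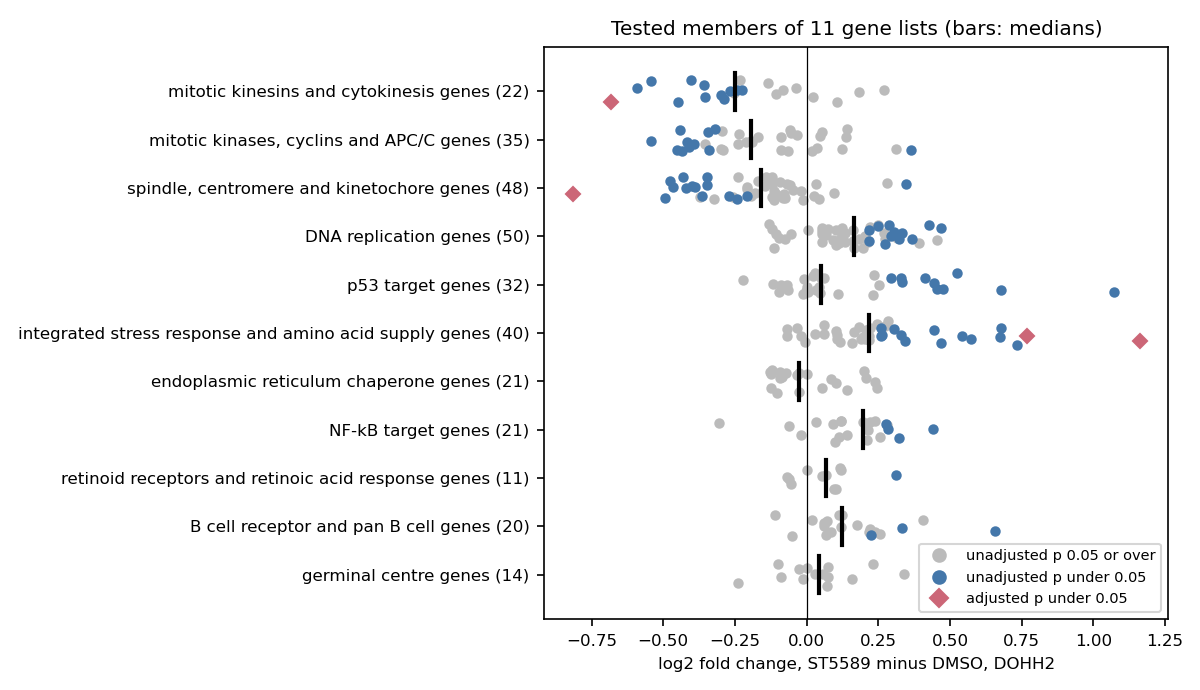
Log2 fold change (ST5589 minus DMSO) of each tested member of 11 gene lists in DOHH2, 1 point per gene with the number tested in brackets; red diamonds passed the adjusted threshold, blue points had an unadjusted p under 0.05, and black bars are medians. The 3 mitotic lists lie mostly left of 0 (medians -0.25, -0.19 and -0.16), the DNA replication and stress lists mostly right of it (medians 0.17 and 0.22), and the chaperone and germinal centre lists around it.

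Genes of DNA replication lay mostly on the higher side. Of 50 tested genes 43 had a positive log2 fold change, against 53.3% of all genes tested, and the median was 0.17. At an unadjusted p under 0.05, 12 were higher and 0 lower, against 2.58% and 2.19% of all genes, and the groups stood apart in 10 upward and in 0 downward, against 4.41% and 3.91%. With scaling of the arrays to a common median, which put the median of all genes at -0.04, the median of this list was 0.03. MCM5, a subunit of the replicative helicase, was at 9.81, 10.04 and 10.27 under DMSO and 10.68, 10.26 and 10.59 under ST5589. Treated array 2 overlapped with DMSO array 3, and the difference was 0.47 ± 0.13. CHAF1B, a subunit of the chaperone that places histones on new DNA, was at 8.61, 8.28 and 8.52 against 8.68, 8.88 and 8.96, without overlap (0.37 ± 0.10). CCNE1, the G1/S cyclin E1, was at 7.95, 7.73 and 7.98 against 8.21, 8.21 and 8.52 (0.43 ± 0.12), but its dimmer probe gave -0.12. None of the 50 passed (limma adjusted p = 0.673 to 0.743 for these 3). Among 29 tested histone genes, whose transcripts are made together with DNA, 0 were higher and 2 lower at an unadjusted p under 0.05, and the median was -0.06.

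Targets of p53 were uneven. CDKN1A, the CDK inhibitor p21, was at 10.84, 10.64 and 10.59 under DMSO and at 11.65, 11.49 and 12.15 under ST5589. Every treated array was higher, by a mean of 1.07 ± 0.19 that is similar in size to that of ATF3, but array 3 stood above the other treated arrays and the gene did not pass (limma adjusted p = 0.125). Its dim second probe gave 0.15 ± 0.28. TNFRSF10B, the death receptor DR5, was at 9.06, 9.26 and 9.32 against 9.61, 9.65 and 9.80 (0.48 ± 0.10), while its 2 dimmer probes gave -0.10 and 0.22. PHLDA3, an inhibitor of AKT, was at 0.45 ± 0.10 and PPM1D, the phosphatase that turns p53 signalling off, at 0.45 ± 0.10, each with the groups apart. PPM1D had the closest treated arrays of these, at 8.95, 8.93 and 8.87. Within DOHH2 only the treated group of PHLDA3 met the rule by which a probe was kept.

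GADD45A, which acts in growth arrest and DNA repair, was at 0.52 ± 0.13 with a second probe at 0.58, and AEN, a nuclease of apoptosis, at 0.41 ± 0.11 with a second probe at 0.23. MDM2, the ubiquitin ligase that degrades p53, was at 6.39, 6.60 and 6.63 against 7.25, 6.85 and 6.52. The MDM2 arrays overlapped, since treated array 3 lay within the DMSO range (0.33 ± 0.14). Of 32 tested p53 targets 10 were higher at an unadjusted p under 0.05 and 0 lower, against 2.58% and 2.19% of all genes, and the median was 0.05. The groups were apart in 10 upward and in 1 downward, against 4.41% and 3.91%, the lower gene being FBXO22, part of a ubiquitin ligase (-0.22, named after its value was seen). SESN2 and PHLDA3 are in both counts of higher genes, and within DOHH2 only their treated groups met the rule by which a probe was kept. The median member was at 0.17, 0.11 and -0.01 in the 3 treated arrays, array 3 being no different from DMSO. The list therefore held a part that was higher in every treated array and a larger part near 0. Genes of the BCL2 family, several of which p53 controls, showed 0 of 16 members at an unadjusted p under 0.05 in limma: PMAIP1 (NOXA) was at 0.24 ± 0.11, BAX, an effector of apoptosis, at 0.25 ± 0.14 and BMF, a BH3-only protein, at 0.18 ± 0.11.

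**Figure D3:**
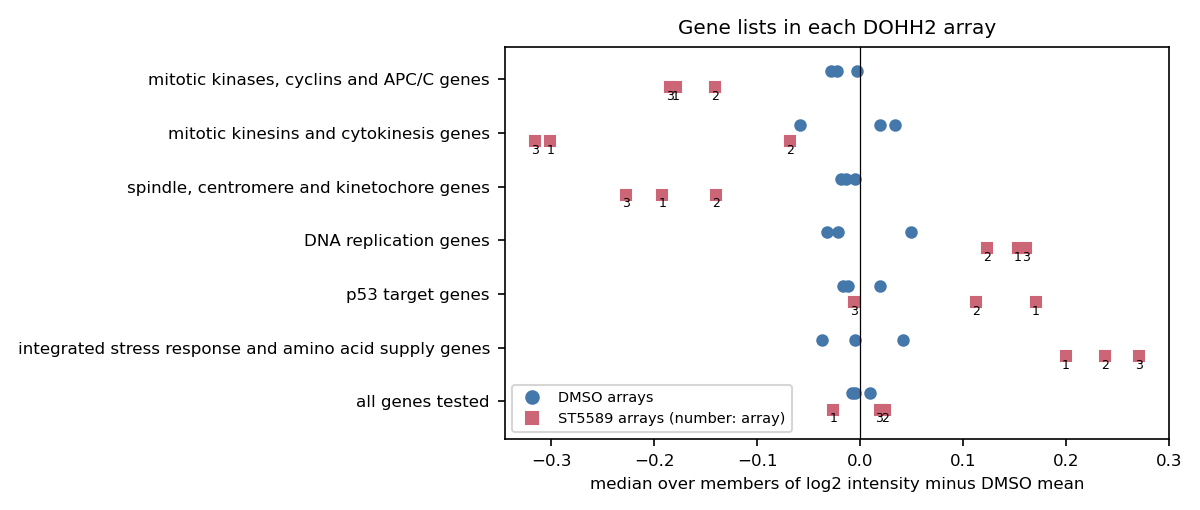
Median over the tested members of each list of the log2 intensity minus the gene's own DMSO mean, for each of the 6 DOHH2 arrays, with DMSO arrays as circles and ST5589 arrays as numbered squares. Array 2 sits near the DMSO arrays for the kinesins (-0.07), array 3 does so for the p53 targets (-0.01), and the 3 treated arrays lie at 0.20 to 0.27 for the stress genes.

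Retinoid target genes were nearly all near 0. CYP26A1, the retinoic acid hydroxylase that classical retinoids raise in many cells, was not above background in any DOHH2 array. Of 22 listed receptors and targets 11 were tested, 1 was higher at an unadjusted p under 0.05 and 0 lower, against 2.58% and 2.19% of all genes tested, and the median was 0.07. That gene was CD38, a surface enzyme with a retinoic acid response element, at 9.20, 8.95 and 8.92 against 9.28, 9.32 and 9.41. Its groups were apart, with a difference of 0.31 ± 0.10 (limma adjusted p = 0.902). PLAAT4 and NRIP1, further retinoid targets, were above background in 0 of 3 DMSO arrays and in 2 of 3 treated arrays each. The groups overlapped in both, with differences of 0.12 ± 0.09 for PLAAT4 and 0.10 ± 0.11 for NRIP1. The background bound puts the treated mean of PLAAT4 1.05-fold higher, but it leaves out the spread, so no rise is shown. For NRIP1 that bound gives no fold.

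Among NF-kB targets, 4 of 21 tested genes were higher at an unadjusted p under 0.05 and 0 lower, against 2.58% and 2.19% of all genes, with a median of 0.20. The median member was at 0.02, 0.22 and 0.24 in the 3 treated arrays, so array 1 was close to DMSO. CCL22, a chemokine, was at 8.48, 8.90 and 8.78 against 9.24, 8.99 and 9.24 (0.44 ± 0.13), RELB, an NF-kB subunit, at 0.28 ± 0.09, TNFAIP3 (A20), an inhibitor of the pathway, at 0.28 ± 0.10 and NFKBIA, the inhibitor IkB-alpha, at 0.32 ± 0.15. None passed (limma adjusted p = 0.88 to 0.927), and NFKBIA was picked after its value was seen. Of 18 immediate early genes 3 were higher and 0 lower by the same unadjusted rule, whose shares over all genes are the same 2.58% and 2.19%. Among them were JUN (6.24, 6.46 and 6.55 against 6.81, 6.92 and 6.92, a difference of 0.47 ± 0.15) and DUSP5, a phosphatase of ERK (0.35 ± 0.12). Within DOHH2 only the treated group of JUN met the rule by which a probe was kept.

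MYC, which is highly expressed in many B-cell lymphomas, was at 11.41, 11.58 and 11.64 against 11.48, 11.67 and 11.86. These values overlapped, the difference was 0.13 ± 0.11, and it was -0.09 where the arrays were brought to a common median. Of 24 MYC and ribosome biogenesis genes 1 was higher and 2 lower at an unadjusted p under 0.05, against 2.58% and 2.19% of all genes tested, with a median of 0.00. The lower genes were WDR12 (-0.34 ± 0.10) and RRP9 (-0.33 ± 0.14), and the higher gene was BOP1 (0.25 ± 0.11), all factors of ribosome assembly. The other probe of WDR12 gave -0.20 ± 0.15. Cholesterol and fatty acid synthesis genes gave 0 of 23 at that threshold, with the named members ACLY, SREBF1 and DHCR7 at 0.27, 0.24 and 0.21. Interferon response genes gave 1 of 24, IRF7 at 0.33 ± 0.13, and antigen presentation genes 1 of 21, TAP1, a peptide transporter, at 0.28 ± 0.12. A single gene in lists of this size is near the share over all genes.

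Small nucleolar RNAs guide the modification of ribosomal RNA, in a C/D and an H/ACA class. Of 90 tested C/D genes 11 were lower and 0 higher at an unadjusted p under 0.05, against 2.19% and 2.58% of all genes, and the median was -0.12. The groups were apart in 15 C/D genes downward and in 2 upward, against 3.91% and 4.41% of all genes. That median stayed between -0.15 and -0.08 over 19 alternatives of processing. SNORD14C, which lies among the 15 lowest p of the lower genes, was at 8.76, 8.89 and 8.68 against 8.40, 8.33 and 8.09 (-0.50 ± 0.11, limma adjusted p = 0.28). SNORD96A was at -0.35 ± 0.09. Of 79 H/ACA genes 6 were lower and 0 higher at an unadjusted p under 0.05, the groups were apart in 11 downward and in 1 upward, and the median was -0.07, SNORA8 being at -0.38 ± 0.09. The difference between the classes was not tested. VTRNA2-1, a vault-related RNA, was at 7.50, 7.39 and 6.99 against 6.78, 6.99 and 6.67 (-0.48 ± 0.14), where the lowest DMSO array and the highest treated array nearly touched. SNORD96A, SNORA8 and VTRNA2-1 were picked after their values were seen.

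The genes whose groups did not overlap were ranked by p. Of the 11419 genes tested 105 were in the mitotic lists, 32 in the p53 list and 40 in the stress list. The lists were chosen with earlier results of these data known, so membership of the ranked genes is no separate result. Of the 15 lower genes 11 were in the mitotic lists and 4 in none of the 23 gene lists. Those 4 were SNORD14C of the C/D class above, GPSM2, THNSL1, a relative of bacterial threonine synthase (-0.41 ± 0.09), and ARHGAP27P1, a pseudogene (-0.48 ± 0.11). Of the 15 higher genes 7 were p53 targets and 6 stress genes, SESN2 being both, and 3 were in no list. These were NBPF9, of a multicopy family whose members share sequence (0.66 ± 0.16, but 0.06 in its dim second probe), TNFAIP2 (0.47 ± 0.12), and PODXL2, which was above background in 0 of 3 DMSO arrays and 2 of 3 treated arrays and at least 1.07-fold higher by the background bound.

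The germinal centre label was checked against marker genes. MME (CD10), LMO2, SERPINA9 and GCSAM were above background in all 6 DOHH2 arrays, but BCL6 and MYBL1, further markers of that stage, were in no DMSO array and were above background only in ST5589 array 2. Of 6 activated B-cell and plasma cell markers 5 were above background in all 6 arrays, IRF4 and PRDM1 among them. The arrays thus do not show the germinal centre pattern alone. Of the 5 B-cell markers measured, CD79A, CD79B, MS4A1 (CD20) and CD22 were above background in all 6 arrays and PAX5 in none. Of 6 T and NK cell markers 5 were in no array and CD2 in 4 of 6, and of 6 myeloid markers LYZ and S100A8 were in all 6 and CSF1R, FCER1G and MPO in none.

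Of 20 tested pan-B genes 18 had a positive log2 fold change, against 6092 of all 11419 genes tested. Their median was 0.12, and none was called. At an unadjusted p under 0.05, 3 were higher and 0 lower, against 2.58% and 2.19% of all genes, and the groups were apart in 4 upward and in 0 downward, against 4.41% and 3.91%. VPREB3, a chain that associates with the pre-B-cell receptor, was at 9.39, 8.58 and 8.66 against 9.41, 9.42 and 9.76, where DMSO array 1 lay at the level of the treated arrays (0.66 ± 0.20). CD79A, a signalling chain of the B-cell receptor, was at 0.33 ± 0.12 in its brightest probe and at -0.03 and -0.16 in the others. Of 14 germinal centre genes 0 had an unadjusted p under 0.05, and of 19 activated and plasma cell genes 3 were higher, PRDM1 (0.31 ± 0.12) and SDC1 (0.30 ± 0.11) among them, and 1 was lower, ENTPD1 (-0.27 ± 0.11). In these 19 genes the groups were apart in 0 upward and in 2 downward. Without ST5589 array 2, 1 of them was higher and 1 lower at that p. Other probes gave 0.12, -0.03 and 0.20 for PRDM1 and -0.10 for SDC1.

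ST5589 array 2 of DOHH2 carried signal of genes that TMD8 expresses. Among 77 probes that exceeded background by over 50 SD in TMD8 and did not exceed it in the other 5 arrays of DOHH2, array 2 showed a median of 3.52% of the TMD8 signal (quartiles 2.38% to 4.66%), and 59 of the 77 were above background. In the other DOHH2 arrays the same measure lay between -0.92% and -0.32%, over 18 or 19 probes each. GZMB (granzyme B) was at 5.81, 8.10 and 5.74 in the 3 treated arrays, and TCL1A, a B-cell oncogene, at 6.14, 7.26 and 5.86. In both, array 2 alone was high, and TCL1A was picked after its values were seen. LMO2 was at 6.74, 7.43 and 6.53, and its difference went from 0.34 to 0.07 without array 2. BCL6 went from 0.23 to 0.05.

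At the median, this signal was seen in genes far higher in TMD8. Over the 30 tested genes more than 4 higher on the log2 scale in TMD8 under DMSO, array 2 lay 0.88 above the other treated arrays, and their median log2 fold change went from 0.33 to -0.02 without it. Over the 216 genes 2 to 4 higher the values were 0.24, 0.09 and 0.00. Over the 5693 genes 0 to 2 higher in TMD8, the 5348 genes 0 to 2 lower and the 132 genes still lower there, array 2 lay 0.02, 0.02 and 0.01 above the other treated arrays.

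**Figure D4:**
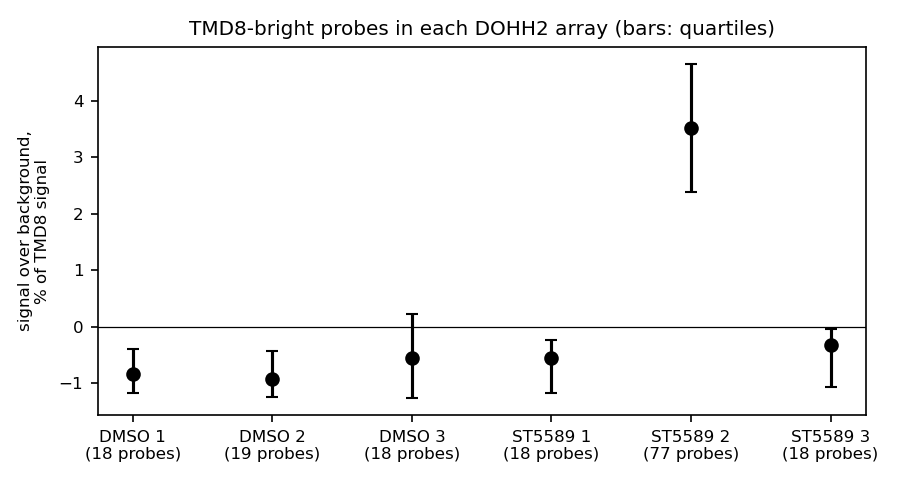
Median signal over background, as a percentage of the TMD8 signal, of probes that were bright in TMD8 and dim in the remaining arrays of DOHH2, for each DOHH2 array, with quartiles as bars and the number of probes under each label. ST5589 array 2 lies at 3.52% and the other 5 arrays between -0.92% and -0.32%.

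Without ST5589 array 2, limma called 3 of 11464 genes (0.0262%), 1 higher (0.00872%) and 2 lower (0.0174%). ATF3 kept its call with a log2 fold change of 1.15 (limma adjusted p = 0.00746), and ATF3 is 1 of the genes higher in TMD8, yet array 2 lay between the other treated arrays. KIF20A (-0.79, limma adjusted p = 0.0212) and DLGAP5 (-0.93, limma adjusted p = 0.0305) were further from 0 without array 2. INHBE kept its size (0.78) but not its call (limma adjusted p = 0.0806). AURKA came to -0.53 (limma adjusted p = 0.0894), CDKN1A to 1.21 (0.0894), DDIT4 to 0.75 (0.0806) and CENPE to -0.67 (0.0894), none past the threshold. At an unadjusted p under 0.05 there were 776 genes (6.77%), 429 higher (3.74%) and 347 lower (3.03%). List medians were -0.34 for the kinesins, -0.20 for the kinases, -0.20 for the spindle genes, 0.19 for replication, 0.06 for p53 targets and 0.20 for the stress genes, so the order of these groups was kept. The pan-B median went from 0.12 to 0.06, while its higher genes at that p went from 3 to 4. Higher genes went from 3 to 1 in the immediate early list and likewise in the activated and plasma cell list.

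Most of the named response went the same way in TMD8, whose 6 arrays include no array of DOHH2 but share the fit with them. There limma called 106 of the same 11419 genes (0.928%), 64 higher (0.56%) and 42 lower (0.368%). All 4 genes called in DOHH2 were also called in TMD8 in the same direction, at 0.92 ± 0.11 for ATF3, 0.49 ± 0.11 for INHBE, -1.23 ± 0.10 for KIF20A and -0.75 ± 0.13 for DLGAP5. Of the 30 genes ranked above, 28 had the same sign in TMD8 and 21 were called there in the same direction, 9 higher and 12 lower. Both lines use the same estimate of spread for each gene. Genes picked for a low p in DOHH2 are therefore more readily called in TMD8, and the calls are not independent. The exceptions in sign were THNSL1 (0.01) and PODXL2 (-0.03 ± 0.12).

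The difference between the lines was tested in the same limma fit as DOHH2 minus TMD8. It was called for 2 genes of 11419 (0.0175%), 1 in each direction (0.00876% each), and 307 had an unadjusted p under 0.05 (2.69%). Both are small RNA genes, called in TMD8 under ST5589 and not in DOHH2. RNU6ATAC, the U6atac RNA of the minor spliceosome, was at 6.61 ± 0.09 and 6.45 ± 0.06 in DOHH2 (SD, n = 3), a log2 fold change of -0.16 ± 0.24 against 2.54 in TMD8 (difference limma adjusted p = 0.0148). VTRNA1-1, a vault RNA, was at 0.06 ± 0.14 in DOHH2 and -1.45 in TMD8 (difference limma adjusted p = 0.0148). Under DMSO its DOHH2 level was 0.26 over the lowest signal counted as above background, while in TMD8 it was at 9.91. A fall of the size seen in TMD8 could not be measured in DOHH2, so this call does not show that the responses differ. The small nuclear RNAs as a class had a median of -0.03 over 12 tested genes in DOHH2 and 0.88 in TMD8, where 5 were called higher.

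Differences in mitotic and p53 genes between the lines did not pass. PLK1 was at -0.24 in DOHH2 and -1.15 in TMD8, a difference of 0.91 ± 0.16 (limma adjusted p = 0.12). Under DMSO its probe was dimmer in DOHH2 (7.06) than in TMD8 (8.27). For KIF20A the difference was 0.54 ± 0.15 (adjusted p = 0.7), for AURKA 0.38 ± 0.12 (adjusted p = 1.0) and for CDKN1A -0.02 ± 0.27 (adjusted p = 1.0). CCNF, a cyclin of a ubiquitin ligase, was at 0.02 in DOHH2 and -0.64 in TMD8 (adjusted p = 0.495). WARS1 was at 0.54 against 0.12 and PSAT1 at 0.34 against 0.10, again with no called difference (adjusted p = 1.0 for both). A call in TMD8 alone is thus not shown to be a difference between the lines. Line and chip cannot be told apart, since each line was run on a chip of its own.

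**Figure D5:**
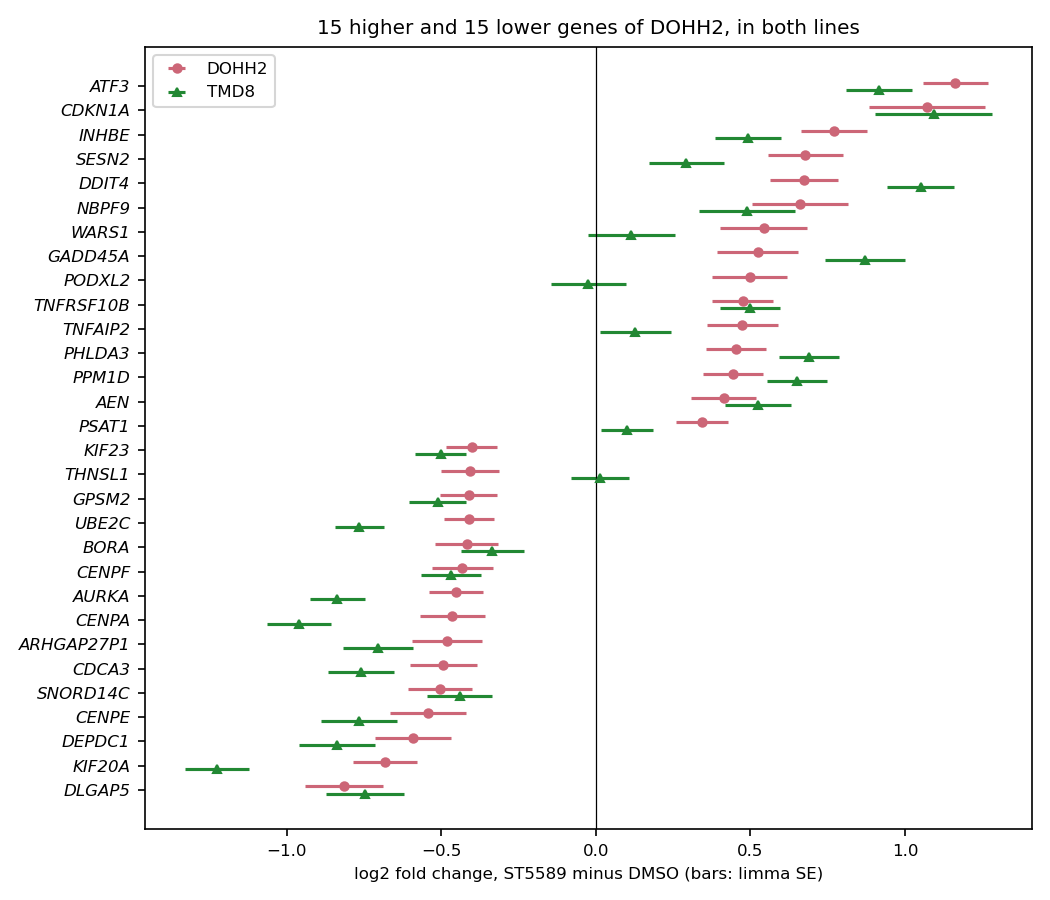
Log2 fold change with its limma SE in DOHH2 (circles) and TMD8 (triangles) for the 15 higher and 15 lower genes with the lowest p in DOHH2 among genes whose groups did not overlap. All but THNSL1 and PODXL2 have the same sign in both lines, and KIF20A lies further from 0 in TMD8 (-1.23) than in DOHH2 (-0.68).

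Arrays of DOHH2 were alike in depth and shape. The median intensity was 90.04 to 105.2, and 38.0% to 42.1% of probes were above background. Across genes, which are not independent replicates, Pearson's r between arrays was 0.9853 to 0.996 within DMSO, 0.9816 to 0.9903 within ST5589 and 0.9806 to 0.9958 between the groups, so treated and untreated arrays were nearly as alike as arrays of the same group. The 3 DMSO arrays came before the 3 ST5589 arrays in their places on the chip, so treatment and place cannot be told apart. At the level of single probes 3 of 20535 were called by limma, and of the 5155 kept probes with no gene name 0 were called and 179 had an unadjusted p under 0.05.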

How the data were processed

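Total RNA was extracted with a column kit and labelled as biotinylated cRNA, per the labels' protocols. GenomeStudio was used per the submitters' processing notes. The authors deposited linear intensity values per probe, not normalized, and processed log2 values. The sources used here do not say how the latter were normalized. In each array these log2 values kept the rank and direction of the intensities, and each array's median was 6.67. They were used as an alternative.

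Of 47231 probes, 30113 had 1 gene symbol in the platform annotation, 8 several and 17110 none here. Intensities were corrected with normexp (offset 50), quantile normalized and taken as log2 with limma 3.58.1 in R 4.3.3. Background was the mode of an array's intensities, and probes past it by 2.33 SD, taken from the lower side of the mode, were above background. A probe was kept if this held in all 3 arrays of any group (20535 probes), and the brightest kept probe of each of 11419 genes was tested. Within DOHH2, CHAC1, SESN2, PHLDA3 and JUN met this rule in the treated group alone. A single linear model (lmFit, eBayes) over all 12 arrays and 4 groups gave the contrasts, with 8 residual degrees of freedom and Benjamini-Hochberg adjustment over all genes tested. The fit was tested on simulated data. An "at least" fold sets the mean of the bright group against the dim probe's signal or the array's lowest signal above background, whichever is higher.

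Precision is limited by the number of arrays, with a median standard error of 0.11 for the log2 fold changes. The 23 gene lists (610 distinct genes, 514 tested) and the members were chosen with earlier results of these data known. Genes were named by rule: 8 set genes (AURKA, AURKB, PLK1, CCNB1, CDKN1A, MDM2, MYC, CYP26A1), every called gene, the 15 higher and 15 lower non-overlapping genes of lowest p, the 3 members of lowest p in each list and the 5 in each direction for the difference between lines. Not all genes that the rule allows are described. Alternatives covered scaling, background, filter, probe choice, array weights, the arrays fitted and each array left out. No pair of arrays held identical values and no sample column was left unused.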

Additional observations from a re-analysis of the deposited data

Results flagged for a closer look

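The test of the ST5589 effect between the lines called 2 genes. For RNU6ATAC the difference, DOHH2 minus TMD8, was -2.71 ± 0.35 on the log2 scale, and for VTRNA1-1 it was 1.50 ± 0.19 (limma adjusted p = 0.0148 for both). In DOHH2 all 6 arrays lay between 6.39 and 6.69 for RNU6ATAC and between 6.35 and 6.86 for VTRNA1-1. Both results therefore rest on the level in the TMD8 arrays. VTRNA1-1 in DOHH2 was so close to background under DMSO that a fall like that in TMD8 could not be measured. Line and chip cannot be told apart.

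Signal of TMD8 genes was present in DOHH2 ST5589 array 2, outside the comparison of treatments. The median over 77 probes was 3.52% of the TMD8 signal. In the 3 DMSO arrays it was -0.84%, -0.92% and -0.55%, over 18, 19 and 18 probes chosen for each array by the same rule. With probes over 10 or 20 background SD in TMD8 the value was 3.53% and 3.50%. Tested genes above background in this treated array alone numbered 114, against 20 in array 1 and 166 in array 3, so that count by itself does not set array 2 apart.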

How the results depend on the processing

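For ST5589 against DMSO in DOHH2, with 4 calls as reported, limma gave 0 with the arrays brought to a common median (77 genes at an unadjusted p under 0.05), 1 without background correction and 2 with a normexp offset of 16. It gave 0 with the 6 DOHH2 arrays only (237 unadjusted), 0 with the replicate block (429 unadjusted) and 2 with an intensity trend and robust eBayes. Among alternatives chosen after seeing the data, the 5 DOHH2 arrays without treated array 2 gave 0 (332 unadjusted), and leaving each TMD8 array out of the fit gave 1 to 5. Leaving out each DOHH2 array gave 1 to 3. Of these 6 fits ATF3 was called in every fit, INHBE only without ST5589 array 1, and KIF20A and DLGAP5 only without ST5589 array 2. Over 19 alternatives ATF3 was called in 15, INHBE in 8, KIF20A in 7 and DLGAP5 in 4, and their directions did not change. With the authors' log2 values 3 genes were called, and 5 without array 2, with AURKA and DDIT4 added and INHBE lost. With a common median 37.8% of genes had a positive fold change, against 53.3%.

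For the ST5589 effect in DOHH2 minus ST5589 effect in TMD8, with 2 calls as reported, 0 were left with a common median (95 unadjusted), 1 without background correction, 1 with the authors' log2 values (also without array 2) and 1 with the replicate block. There were 4 with the offset of 16 and 15 with array weights. Leaving out each DOHH2 array gave 0 to 2, and leaving out each TMD8 array 0 to 17, the 17 coming without TMD8 ST5589 array 2. The cause was not tested. Same-numbered arrays of the DOHH2 groups had correlations of -0.49, 0.00 and -0.25 in their deviations, so the numbers do not pair the samples.

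Of 111 genes recomputed, 102 kept their sign throughout, and the other 9 lay mostly near 0. With a common median MYC was at -0.086, CCNF at -0.109, RNU4-2 at -0.022 and ATF4 at -0.191, and ATF4 was at -0.095 with the mean of its probes. With array weights CCNF was at -0.005, FOXM1 at -0.087 and SNORA2B at 0.021. On the authors' log2 values without ST5589 array 2, GZMB was at -0.05, VTRNA1-1 at -0.077, RNU4-2 at -0.04 and TCL1A at -0.003. In the 5 DOHH2 arrays alone VTRNA1-1 was at -0.09 and RNU4-2 at -0.047. Over the arrays left out in turn, GZMB ranged from -0.098 to 1.083, TCL1A from -0.011 to 0.691 and VTRNA1-1 from -0.095 to 0.162, with the lowest value in each case without ST5589 array 2. CCNF ranged from -0.077 to 0.121, RNU4-2 from -0.046 to 0.163, SNORA2B from -0.142 to 0.024, ATF4 from -0.035 to 0.084 and FOXM1 from -0.052 to 0.282.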
